A study of Mus musculus with 2 samples.

Results

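The histone-high cells were the 278 early-anagen melanocyte stem cells (McSCs) with the largest share of transcripts from 6 replication-dependent histone genes, Hist1h1b, Hist1h2ap, Hist1h2ae, Hist1h2ab, Hist1h1e and Hist1h3c. They were chosen among 2785 eligible cells of the early-anagen library, which had more than 10000 unique molecular identifiers (UMIs, each standing for 1 captured transcript), less than 5% of UMIs from mitochondrial genes, at least 1 UMI of the melanocyte gene Dct and fewer than 3 UMIs of the keratin genes Krt10 and Krt14 together. These eligible cells were 25.3% of the 11010 barcodes of the library, and 653 further cells were lost to the keratin limit alone. The members were the top 10% by the summed share of the 6 genes. They made up 2.52% of the barcodes of their library, and both libraries of the series together held 15337 barcodes. They were compared with the 1588 eligible cells at or below the median share, called histone-low cells here. Because 57.0% of eligible cells had no UMI of the 6 genes, the bottom 50% could not be separated from ties, and all 1588 cells at 0 were taken. The 919 cells between were called the middle cells.

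The series held 2 droplet single-cell RNA-seq libraries of sorted GFP-positive cells from back skin. The mice were Dct-rtTA; tetO-H2B-GFP, in which the Dct promoter drives rtTA and doxycycline switches on histone H2B fused to GFP in cells of the melanocyte lineage. For the early-anagen library, mice were depilated at 8 weeks of age and fed a diet with doxycycline. The cells came from anagen II hair follicles 4 days after depilation. The other library held bulb melanocytes of anagen VI follicles from mice aged 5 weeks, fed the same kind of diet. In both cases it held 1 g doxycycline per kg and was given for 4 days. The cells of 4 mice were pooled in each library. Cells are not replicates of a condition, so no test between conditions could be made. The early-anagen library held 116800173 UMIs and the bulb library 58161397. One barcode sequence, 1 of 11010 and of 4327, occurred in both libraries. Doublets were not removed by a caller.

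Replication-dependent histones package newly made DNA, and their genes, which lie in clusters, are transcribed mainly in S phase. Their mRNAs end in a conserved stem-loop bound by SLBP in place of a poly(A) tail, and are degraded when DNA synthesis stops. A kit that primes on poly(A), as used here, therefore captures only part of these mRNAs, so their UMI counts do not give the amount of histone mRNA in a cell. McSCs of the hair follicle are mostly quiescent in telogen and enter the cell cycle in early anagen, when some of their progeny begin to make pigment.

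The rule genes are shown with the sequences that define this class of gene. All 6 lay on chromosome 13 of GRCm38, where 54 of the 67 genes named Hist1h, Hist2h, Hist3h or Hist4h spanned 2219 kb, and each was a single exon in GENCODE M21. Top2a, the topoisomerase that untangles replicated DNA and the fourth marker of the cells, lies on chromosome 11. RefSeq promoters (GRCm38.p6, 150 bases before to 10 after the annotated start) were found for 62 of the 67 histone genes, under newer symbols for the rule genes (Hist1h1b is H1f5, Hist1h2ap is H2ac24). The promoters are printed 5′ to 3′, since the members were chosen for genes that are transcribed together. Capitals mark matches, on either strand, to the CCAAT box spelled CCAAT, the TATA box spelled TATAAA, the H1 box spelled AAACACA, the octamer spelled ATTTGCAT and the cell cycle homology region (CHR) spelled TTTGAA.
Hist1h1b, chr13:21780616-21780775, minus strand: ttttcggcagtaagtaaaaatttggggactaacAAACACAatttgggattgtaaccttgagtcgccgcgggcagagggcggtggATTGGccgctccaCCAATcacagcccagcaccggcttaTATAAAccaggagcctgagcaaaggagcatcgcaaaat
Hist1h1e, chr13:23622549-23622708, minus strand: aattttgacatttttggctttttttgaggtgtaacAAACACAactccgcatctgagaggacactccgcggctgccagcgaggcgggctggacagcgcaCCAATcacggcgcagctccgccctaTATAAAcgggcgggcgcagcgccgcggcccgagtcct
Hist1h2ap, chr13:21833466-21833625, minus strand: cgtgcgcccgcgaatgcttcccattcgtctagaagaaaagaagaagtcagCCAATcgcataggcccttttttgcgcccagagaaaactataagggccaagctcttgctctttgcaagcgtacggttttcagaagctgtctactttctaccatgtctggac
Hist1h2ae, chr13:23571211-23571370, minus strand: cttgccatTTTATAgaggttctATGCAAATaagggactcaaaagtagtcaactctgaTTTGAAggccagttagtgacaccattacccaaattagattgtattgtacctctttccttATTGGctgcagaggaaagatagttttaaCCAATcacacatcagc
Hist1h2ab, chr13:23750938-23751097, plus strand: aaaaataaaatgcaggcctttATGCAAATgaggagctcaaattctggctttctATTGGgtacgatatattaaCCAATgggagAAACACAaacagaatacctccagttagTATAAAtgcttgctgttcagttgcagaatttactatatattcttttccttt
Hist1h3c, chr13:23745512-23745671, minus strand: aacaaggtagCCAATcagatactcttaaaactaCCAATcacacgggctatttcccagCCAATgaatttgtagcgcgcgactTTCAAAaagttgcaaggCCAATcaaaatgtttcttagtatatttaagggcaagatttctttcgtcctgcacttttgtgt
Top2a, chr11:99024180-99024339, minus strand: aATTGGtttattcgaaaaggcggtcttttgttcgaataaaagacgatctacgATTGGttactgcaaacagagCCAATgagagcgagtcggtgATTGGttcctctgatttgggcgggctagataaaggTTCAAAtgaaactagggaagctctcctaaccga
All 7 windows held CCAAT, with 4 matches in Hist1h3c and in Top2a. Over all 27025 RefSeq promoters of this length, 25.7% held CCAAT, against 51 of the 62 histone promoters (82.3%). TATAAA was found in 8.40% of all promoters and in 40.3% of the histone promoters. The octamer was found in 1.07% and 17.7%, the H1 box in 3.83% and 12.9%, and the CHR letters in 9.61% and 27.4%. The H1 box letters stood in both H1 genes of the rule and in Hist1h2ab. These are matches of letters and were not tested as binding sites. No match overlapped another in the printed windows.

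The stem-loop was found after the coding part of 5 of the 6 rule genes and of 46 of the 67 histone genes by the pattern used (GENCODE M21 transcripts, GRCm38). It is printed here in capitals because it is what separates these mRNAs from poly(A) mRNAs.
Hist1h2ap, chr13:21833026-21833049, minus strand: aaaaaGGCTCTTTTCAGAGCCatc
Hist1h2ae, chr13:23570663-23570688, minus strand: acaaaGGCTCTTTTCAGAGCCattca
Hist1h2ab, chr13:23751567-23751592, plus strand: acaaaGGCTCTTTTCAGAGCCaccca
Hist1h1e, chr13:23621777-23621802, minus strand: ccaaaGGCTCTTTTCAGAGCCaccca
Hist1h3c, chr13:23745042-23745067, minus strand: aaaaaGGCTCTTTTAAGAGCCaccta
Hist1h2ap, Hist1h2ae, Hist1h2ab and Hist1h1e shared 1 form of the stem-loop, which 26 histone genes carried in all. Hist1h3c had another form, found in 6 genes. In Hist1h1b no match to the pattern was found. A missing match does not show that a gene lacks the stem-loop. Only annotated transcripts were searched, and some are short, such as the 381 bases of Hist1h2bl. The annotated transcript of Hist1h2ap ended with the printed stretch and that of Hist1h1e 1148 bases after it. Some histone genes share sequence, so the split of UMIs among those is uncertain. Sequence was compared only with genes that have a histone symbol. Of 15 histone genes checked, the 6 rule genes and the 9 others with the most UMIs, 6 shared no window with another such gene (Hist1h1a, Hist1h1b, Hist1h1c, Hist1h2bc, Hist1h4d and Hist1h4i). Of the windows of 90 bases in the last 400 bases of Hist1h2ap, 100% also occurred in at least 1 of 16 other genes, H2afx among them. For Hist1h1e the share was 100% too, but through the overlapping gene Hist1h2be alone.

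Within the histone-high cells the rule genes together took a median of 59.1 UMIs per 10000 (quartiles 45.4 and 80.6, range 29.1 to 168). This is how the cells were chosen and is not a finding. The 3 members nearest the limit had 29.9, 29.6 and 29.1 rule UMIs per 10000, and the 3 cells just outside had 28.6, 28.2 and 27.8, so the limit fell in a continuous range. Of the eligible cells, 309 had at least 20 rule UMIs per 10000, 334 at least 10 and 491 at least 1. At 50 or more there were 189 cells and at 100 or more 31. Every member had UMIs of at least 4 of the 6 genes, and the median member had all 6.

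After each cell was thinned to 10000 UMIs, the levels of single rule genes still varied widely among members. Hist1h2ap, an H2A gene, had a median of 30.5 UMIs per member (quartiles 22 and 44, range 5 to 100). Hist1h2ae, a further H2A gene, had a median of 12 (quartiles 7 and 17, range 0 to 77). Hist1h1b, a gene of linker histone H1, had a median of 8.5 (quartiles 5 and 13, range 0 to 42). Hist1h2ap was detected in 100% of members, Hist1h1b in 99.6% and Hist1h2ae in 98.9%, while Hist1h1e was detected in 89.2%, Hist1h2ab in 82.4% and Hist1h3c, an H3 gene, in 77.3%. Of all rule UMIs in the members, 52.7% came from Hist1h2ap, 21.2% from Hist1h2ae, 14.5% from Hist1h1b, 4.62% from Hist1h1e, 3.96% from Hist1h2ab and 3.06% from Hist1h3c. Most rule UMIs of the members thus came from H2A genes. Of the 278 cells chosen by Hist1h1b alone, 254 (91.4%) were also members. Across the 278 members the pairs of rule genes had Spearman correlations from 0.12 (Hist1h1b with Hist1h3c) to 0.49 (Hist1h2ap with Hist1h2ae). The cells share a library and the counts are small, so these values describe the cells only.

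**Figure D1:**
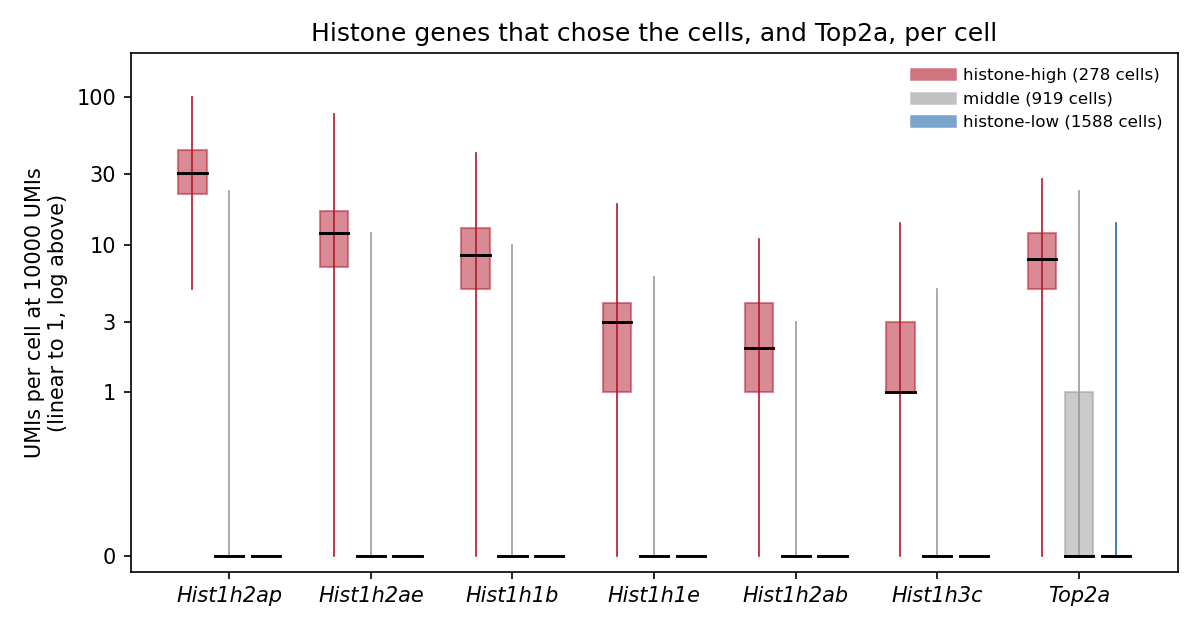
UMIs per cell at 10000 UMIs (vertical axis, linear to 1 and log above) of the rule genes and Top2a in the histone-high, middle and histone-low cells. Boxes span the quartiles, the black line is the median and the thin line runs from the lowest to the highest cell. Hist1h2ap had a median of 30.5 UMIs in the histone-high cells and Top2a a median of 8.

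Because the same UMIs chose and measured the cells, the UMIs of each cell were also divided at random into 2 equal parts, one to choose members and the other, thinned to 5000 UMIs, to measure them. This choice gave 274 of the same 278 cells (98.6%). In the UMIs not used for the choice, Hist1h2ap stood at 3401 CPM (UMIs of the gene scaled to 1000000 UMIs of the group) in the members and 3.37 CPM in the 1899 cells at 0, a log2 ratio of 9.98 (9.48 to 10.53). Hist1h1b stood at 954 and 3.37 CPM, a log2 ratio of 8.14 (7.64 to 8.70). Hist1h1e had the smallest log2 ratio of the rule genes, 6.09 (5.65 to 6.57), at 323 and 4.74 CPM. The intervals given here are exact 95% intervals of a ratio of 2 Poisson counts and those of shares are Clopper-Pearson intervals. They cover counting error only, and say nothing of the spread between mice or libraries.

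Members tended to hold more UMIs than the other cells, with a median of 42711 UMIs (range 14125 to 88988), against 28834 in the middle cells (10014 to 99743) and 21266 in the histone-low cells (10001 to 63282), so the groups overlapped. The number of genes detected at a fixed 10000 UMIs differed little, with medians of 3026, 2992 and 2930. Mitochondrial genes took a median of 2.78% of UMIs in members, 3.04% in middle cells and 3.14% in histone-low cells. Among the 5% of eligible cells with the most UMIs there were 62 members (22.3% of them), 69 middle cells (7.51%) and 9 histone-low cells (0.567%). The part of doublets in these values was not tested by a caller. Without those top cells the 5 list medians that follow kept their direction and stayed within the counting interval of the values given.

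Other cell types left little trace in the members. The melanocyte markers Dct, Tyrp1, Pmel, Mlana, Mitf, Sox10, Kit and Ednrb were all detected, and summed to 18317 CPM in members, 25787 in middle cells and 26922 in histone-low cells. Of the 12 keratinocyte markers 11 had a UMI in a member, the rule itself having limited Krt10 and Krt14. They summed to 75.9, 113 and 64.4 CPM, led by Lgals7, with no Trp63 UMI in any member. Of 6 fibroblast markers 2 had a UMI in a member, and they summed to 2.52, 1.63 and 1.45 CPM, led by Col1a2. Of 6 immune markers 3 had a UMI in a member, and they summed to 11.9, 25.6 and 16.8 CPM, led by Cd74, and Ptprc, Cd3e and Cd3g were at 0 in members. None of the 3 endothelial markers had a UMI in a member. The Schwann cell list stood at 147, 131 and 132 CPM, nearly all from Pmp22, with Mbp at 0. The part of these transcripts in the results was not tested.

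The label of these cells as late S phase was set beside phase calls made from 43 S and 54 G2/M genes, which hold no rule gene. Of the 278 members, 173 were called G2/M (62.2%, 56.2 to 68.0), 105 were called S (37.8%, 32.0 to 43.8) and 0 were called G1, which allows a share of up to 1.08% by 3 counts. Of the middle cells 46.9% were called G1, 27.0% S and 26.1% G2/M. Of the histone-low cells 77.4% were called G1, 18.5% S and 4.16% G2/M. The calls placed most members in G2/M. They offer only G1, S and G2/M and no class for late S, so they cannot decide that label. The cells are named here only by their histone genes. Histone level and phase call divided the cells differently. Of the 646 cells called S, 16.3% were members and 45.4% had no rule UMI, and of the 479 cells called G2/M, 36.1% were members and 50.1% were middle cells.

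Members carried transcripts of S phase genes and of G2 and mitosis genes in the same cell. With limits set after the values had been seen, at 20 UMIs of G1/S and S genes and 10 UMIs of G2 and mitosis genes per 10000, 251 of the 278 members (90.3%, 86.2 to 93.5) were above both. Only 76 middle cells (8.27%) and 4 histone-low cells (0.252%) were. Members made up 75.8% of the 331 cells above both limits. They made up 3.32% of the 482 cells above the limit for G1/S and S genes alone, and 4.12% of the 267 cells above that for G2 and mitosis genes alone. None of the 1705 cells below both limits was a member. Without the 5% of cells with the most UMIs, 194 of 216 members (89.8%) were above both limits, a setting added after the data had been seen. The gene lists hold no rule gene, but the cells are those of the rule, so these shares describe the chosen cells.

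**Figure D2:**
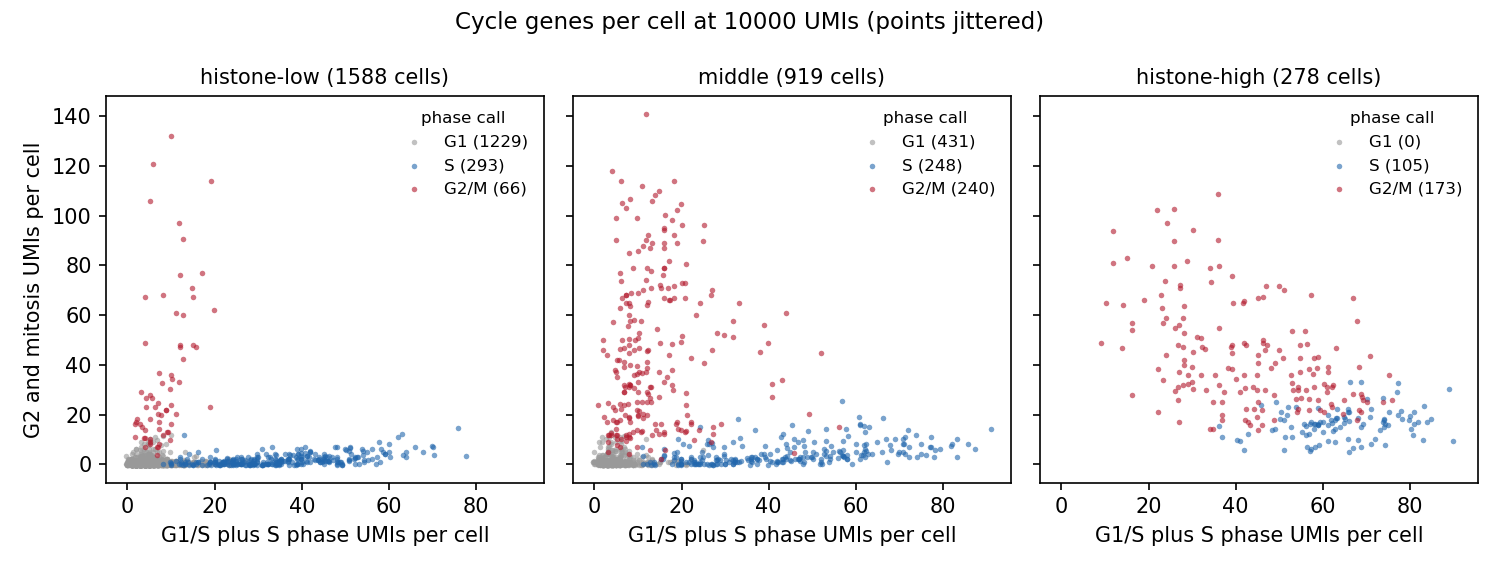
Each point is 1 cell, with UMIs of G1/S and S phase genes per 10000 on the horizontal axis and of G2 and mitosis genes on the vertical axis, in 3 panels for histone-high, middle and histone-low cells, coloured by phase call. The histone-high cells lie where both lists are high, with 90.3% of them above 20 and 10 UMIs.

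In the comparison of histone-high with histone-low cells, 7460 genes had at least 10 CPM over all eligible cells, and their median log2 ratio was -0.07. A gene was counted as higher or lower when its CPM differed at least 1.5-fold. By that rule 803 genes were higher, which is 10.8% of those compared, and 953 genes were lower, which is 12.8%. The members were chosen in this same contrast, so the counts of the lists that follow are descriptions of the chosen cells and support nothing. The minimum of 10 CPM is reached by a cell cycle gene mainly through the cells in which it is high. For this reason sums over whole lists are given beside the counts.

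Histone genes outside the rule were higher in the same cells. There were 61 such genes, and they summed to 1378 CPM in members, 193 CPM in middle cells and 99.7 CPM in histone-low cells. Only 9 of the 61 reached 10 CPM, those 9 were higher, and their median log2 ratio was 3.03. Over the alternatives this median ran from 2.04 against the middle cells to 6.04 in cells of more than 20000 UMIs, there over 13 genes. Of the whole list, with no minimum, 48 genes were at least 1.5-fold higher in members, 3 lower and 4 within 1.5-fold, and 6 had no UMI in either group. In the UMIs not used to choose the cells, the list had a summed log2 ratio of 3.65 (3.54 to 3.76). Every class took part. The other H1 genes summed to 234 CPM in members and 10.2 CPM in histone-low cells, the H2A genes to 236 and 14.5, the H2B genes to 314 and 51.5, the H3 genes to 259 and 4.22 and the H4 genes to 335 and 19.3. No H3 gene outside the rule reached the minimum, although the summed H3 genes had the widest gap of the 5 classes.

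Single histone genes differed in how closely they followed the rule genes. Hist1h1a, a linker histone gene, stood at 112 CPM in members, 3.26 CPM in middle cells and 0.567 CPM in histone-low cells, a log2 ratio of 7.62 (6.68 to 8.77). The last level rests on 9 UMIs, and with another random thinning the log2 ratio was 9.30. Hist2h2ac, an H2A gene of the cluster on chromosome 3, stood at 121, 5.77 and 2.33 CPM, a log2 ratio of 5.70. Hist1h4d, an H4 gene, stood at 142, 11.5 and 3.09 CPM, a log2 ratio of 5.53 (5.10 to 5.99). These 3 genes were low in the middle cells as well as in the histone-low cells. Hist1h2bc, an H2B gene, stood instead at 46.8, 33.2 and 11.4 CPM, so the middle cells lay near the members, and its log2 ratio was 2.04 (1.70 to 2.37). Hist1h2bm had the smallest log2 ratio of the 9 genes, 1.69 (1.37 to 2.01), at 46.0, 14.5 and 14.2 CPM. Among the genes below the minimum, the H3 gene Hist1h3b stood at 73.0 CPM in members and 0.189 CPM in histone-low cells, the latter from 3 UMIs, a log2 ratio of 8.59 (7.03 to 10.88). Hist2h2be was among the genes that were not higher, at 3.96 and 5.35 CPM, a log2 ratio of -0.44 (-1.49 to 0.48).

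**Figure D3:**
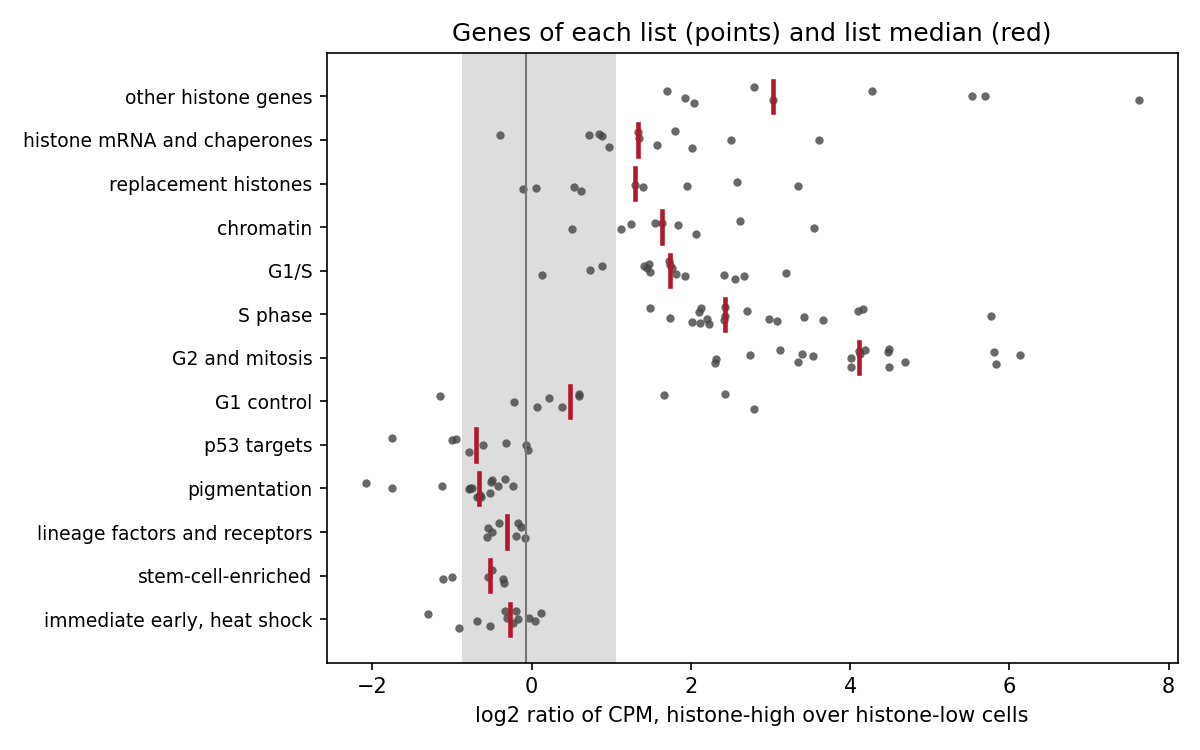
Log2 ratio of CPM in histone-high over histone-low cells for the genes of each list with at least 10 CPM (points), with the list median (red line). The grey band runs from the 5th to the 95th percentile of all 7460 genes (-0.87 to 1.04) and the grey line is their median (-0.07). The histone, S phase and G2 and mitosis lists lie above the band, and pigmentation genes below 0.

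Genes that license and start DNA replication were higher in members, by less than the later cell cycle genes. Of the 18 G1/S genes 16 reached the minimum, 15 were higher and 0 were lower, with a median log2 ratio of 1.73. The whole list summed to 1774 CPM in members, 781 in middle cells and 530 in histone-low cells. Ccne1, which encodes the cyclin E that drives entry into S phase, had the largest log2 ratio of the list, 3.19 (2.84 to 3.55), at 62.2, 14.9 and 6.80 CPM. Cdc45, a subunit of the replicative helicase, followed at 2.67 (2.26 to 3.07). Ung, a uracil DNA glycosylase, had the smallest, 0.12 (-0.40 to 0.61), at 14.7 CPM in members and 13.5 CPM in histone-low cells. Pcna, the sliding clamp of DNA polymerase, stood at 533, 194 and 140 CPM, with a median of 5 UMIs per 10000 in members and 1 in each of the other groups.

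S phase genes were higher in members by more than the G1/S genes. Of 21 genes 19 reached the minimum, and those 19 were higher, with a median log2 ratio of 2.42. The list summed to 3283 CPM in members, 985 in middle cells and 534 in histone-low cells. Esco2, the acetyltransferase that joins sister chromatids during replication, had the largest log2 ratio, 5.77 (5.25 to 6.33), at 113, 11.3 and 2.08 CPM. Tk1, thymidine kinase, and Rrm2, the regulated subunit of ribonucleotide reductase, had log2 ratios of 4.15 (3.90 to 4.41) and 4.10 (3.90 to 4.29). Both enzymes supply deoxynucleotides. Brca1, a DNA repair gene, had the smallest log2 ratio, 1.49 (1.15 to 1.82).

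G2 and mitosis genes were likewise higher in members. Of 22 genes 19 reached the minimum, and those 19 were higher, with a median log2 ratio of 4.11, and the list summed to 3328 CPM in members, 1370 in middle cells and 234 in histone-low cells. The median was 3.36 in UMIs not used for the choice of cells and 1.30 against the middle cells. Kif11, a spindle motor, had the largest log2 ratio, 6.13 (5.58 to 6.73), at 128, 23.4 and 1.83 CPM. Aurkb, a kinase of the chromosomal passenger complex, followed at 5.84 (5.36 to 6.35). The order of Kif11 and Aurkb turned with another random thinning, at 5.57 and 5.71, and in some other settings. The smallest were those of Cenpa, the centromeric H3 variant, at 2.31 (2.14 to 2.48), and Ccnb2, cyclin B2, at 2.31 (2.09 to 2.52). For these 2 genes the middle cells lay close to the members, with Cenpa at 191 CPM in members and 170 CPM in middle cells and Ccnb2 at 119 and 102 CPM.

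Top2a was detected in 99.3% of members, 34.8% of middle cells and 12.8% of histone-low cells. Members had a median of 8 Top2a UMIs per 10000 (quartiles 5 and 12, range 0 to 28), and the median of both other groups was 0. The ranges overlapped, since histone-low cells reached 14. Its CPM of 888, 157 and 26.9 gave a log2 ratio of 5.05 (4.90 to 5.20), and in UMIs not used for the choice of cells the value was 4.59 (4.42 to 4.76).

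Genes that process histone mRNA or carry histones to chromatin were moderately higher. Of the 14 genes 12 reached the minimum, 11 were higher and 0 lower, with a median log2 ratio of 1.34, and the list summed to 1526, 744 and 574 CPM. Asf1b, an H3-H4 chaperone, had the largest log2 ratio, 3.61 (3.35 to 3.88). Chaf1b, a subunit of the chromatin assembly factor CAF-1, followed at 2.50 (2.25 to 2.75). Slbp, the stem-loop binding protein, stood at 213, 76.3 and 61.0 CPM, a log2 ratio of 1.81 (1.66 to 1.95), and was detected in 78.8% of members and 42.8% of histone-low cells. Lsm10, a subunit of the U7 particle that cleaves histone pre-mRNA, had the smallest log2 ratio, -0.40 (-0.82 to -0.01), at 20.9 and 27.6 CPM.

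Replacement histones, most of which are made from poly(A) mRNA throughout the cycle, were divided. Of 10 genes 9 reached the minimum, 6 were higher and 0 were lower, with a median log2 ratio of 1.30, and the list summed to 9842, 6722 and 5310 CPM. H2afx, the variant phosphorylated at DNA breaks, had the largest log2 ratio, 3.34 (3.15 to 3.53). It is known to make a stem-loop mRNA in S phase besides a poly(A) mRNA, and it shares windows with the H2A genes of the rule. H1fx, a linker variant, followed at 2.58 (2.36 to 2.80). H2afz, which encodes H2A.Z, stood at 3953, 2092 and 1024 CPM, and its median per cell was 38 UMIs in members, 18 in middle cells and 7 in histone-low cells. H3f3a, one of the H3.3 genes, stood at 2070 CPM in members and 1995 CPM in histone-low cells, a log2 ratio of 0.05 (0.01 to 0.09), and H2afj had the smallest at -0.11 (-0.24 to 0.02).

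Chromatin and nuclear lamina genes followed the same pattern, with 8 of 9 higher, 0 lower, and a median log2 ratio of 1.63. The list summed to 5232 CPM in members, 2439 in middle cells and 1356 in histone-low cells. Hmgb2, an abundant DNA-bending protein of dividing cells, had a median of 18.5 UMIs per 10000 in members (range 4 to 59), 2 in middle cells and 1 in histone-low cells, a log2 ratio of 3.54 (3.48 to 3.61). Lmnb1, lamin B1, followed at 2.62 (2.47 to 2.77), and Eed, a Polycomb subunit, had the smallest at 0.50 (0.20 to 0.80).

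Regulators of G1 were mixed. Of 13 genes 10 reached the minimum, 5 were higher and 1 was lower, with a median log2 ratio of 0.49. The list summed to 896 CPM in members, 635 in middle cells and 624 in histone-low cells. Cdkn2c, an inhibitor of the kinases that act with D cyclins, stood at 139, 38.0 and 20.1 CPM, a log2 ratio of 2.79 (2.57 to 3.01). Rbl1, which encodes the pocket protein p107, had a log2 ratio of 2.42 (2.08 to 2.77). Ccnd2, cyclin D2, was the gene that was lower, at 74.8, 130 and 166 CPM, a log2 ratio of -1.15 (-1.36 to -0.95), and it was detected in 45.3% of members and 72.8% of histone-low cells. The 11 genes known as p53 targets summed to 353, 407 and 439 CPM, a log2 ratio of -0.31 (-0.41 to -0.22). Of these 8 reached the minimum, 0 were higher and 5 were lower, with a median of -0.70. Trp53inp1 had the lowest log2 ratio of these, -1.76 (-2.58 to -1.03), at 5.76 and 19.5 CPM, while Ccng1 stood at 17.3 and 17.8 CPM.

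Pigmentation genes took a smaller share of the transcripts of members. All 16 genes reached the minimum, 0 were higher and 10 were lower, with a median log2 ratio of -0.66, and they summed to 14492 CPM in members, 20516 in middle cells and 20672 in histone-low cells. The 2 genes with the lowest ratios were sparse. Slc24a4, an ion exchanger, stood at 4.32, 20.5 and 18.3 CPM, a log2 ratio of -2.09 (-3.06 to -1.26). Oca2, a melanosome anion channel, stood at 6.83, 27.4 and 23.0 CPM, a log2 ratio of -1.75 (-2.50 to -1.09), and was detected in 4.68% of members (2.51 to 7.86) against 10.1% of histone-low cells (8.64 to 11.7). Mc1r, the melanocortin receptor, had the ratio nearest 0, at -0.23 (-0.45 to -0.02). Mlana, a membrane protein of melanosomes, was next at -0.34 (-0.36 to -0.31), with a median of 43 UMIs per 10000 in members (range 0 to 118) and 51 in histone-low cells (range 0 to 197). Members and histone-low cells overlapped in each of these genes. The lower share did not mean fewer transcripts captured per cell: over all UMIs, the pigmentation genes had a median of 587 UMIs per member, 553 per middle cell and 396.5 per histone-low cell. RNA content and capture of a cell cannot be told apart in these counts.

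Transcription factors and receptors of the melanocyte lineage differed little between the groups. Of the 8 genes 0 passed 1.5-fold in either direction, with a median log2 ratio of -0.31. They summed to 2134 CPM in members, 2618 in middle cells and 2617 in histone-low cells. Mitf, the master regulator of melanocytes, stood at 406, 471 and 432 CPM, a log2 ratio of -0.09 (-0.18 to 0.00), and Sox10 had the lowest at -0.57 (-0.76 to -0.38), close to the 1.5-fold limit, which it passed with another random thinning (-0.68) and in 4 other settings. Of 6 genes listed as enriched in stem cells, a list that was picked on these samples and is no independent evidence, 0 were higher and 2 were lower, with a median of -0.52. The list summed to 1282, 1664 and 1923 CPM. The lower genes were Txnip, at 102 and 220 CPM, and the heat shock gene Hspa1a, at 237 and 476 CPM.

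The genes with the largest ratios were cell cycle genes. Among the 2680 genes of at least 50 CPM, without rule genes, the 10 with the largest log2 ratio were Pbk, Top2a, Prc1, Mki67, Pclaf, Cdk1, Tpx2, Ube2c, Birc5 and Rrm2. Pbk, a mitotic kinase, stood at 344, 50.8 and 7.56 CPM, a log2 ratio of 5.51 (5.23 to 5.79). Mki67, the proliferation marker Ki-67, stood at 471, 123 and 19.5 CPM and was detected in 93.9% of members, 35.0% of middle cells and 9.38% of histone-low cells. Pclaf, a partner of PCNA, had a log2 ratio of 4.59 (4.44 to 4.74). Among the genes at the other end were Tcp11l2, Mxd4, Cst6, H2-T23, Snhg18, Ahnak2, Xbp1, Ypel3 and Hspb1. Mxd4, a repressor that competes with MYC for its partner MAX, stood at 31.7, 131 and 154 CPM, a log2 ratio of -2.28 (-2.60 to -1.97). Tcp11l2 stood at 26.3, 99.3 and 128 CPM, a log2 ratio of -2.29 (-2.65 to -1.95). For Tcp11l2 and Mxd4 the middle cells lay nearer the histone-low cells than the members.

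Members called S and members called G2/M were both chosen for their rule genes, and the sum of these genes differed little. It came to 6191 CPM in the 105 members called S and 6729 CPM in the 173 called G2/M, a log2 ratio of -0.12 (-0.16 to -0.08), and both sets had a median of 58 rule UMIs per cell at 10000 UMIs. The sum rested on Hist1h2ap, with a log2 ratio of 0.08 (0.02 to 0.14), and the other rule genes were lower in the S members, from -0.14 (-0.26 to -0.02) for Hist1h1b to -0.66 (-0.90 to -0.42) for Hist1h2ab. The other histone genes summed to 1188 and 1493 CPM. Slbp was higher in the S members, at 280 against 173 CPM, a log2 ratio of 0.70 (0.46 to 0.93). Chaf1b stood at 153 and 63.6 CPM, a log2 ratio of 1.27 (0.91 to 1.63), and Casp8ap2, which acts in histone mRNA expression, at 52.4 and 23.7 CPM, a log2 ratio of 1.14 (0.53 to 1.76). In the other direction H1f0, the linker variant H1.0, stood at 86.7 and 224 CPM, a log2 ratio of -1.37 (-1.72 to -1.04). Hist1h4d stood at 81.0 and 180 CPM, a log2 ratio of -1.15 (-1.51 to -0.80), and H2afx at 153 and 277 CPM, a log2 ratio of -0.86 (-1.12 to -0.60). Pigmentation genes summed to 14737 and 14344 CPM, so the lower share of these genes was present in both sets. These genes were chosen from the lists after their values had been seen.

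Among members, the number of rule UMIs went with that of the other histone genes (Spearman rho 0.46 over 278 cells of 1 library at equal depth) and scarcely with the 5 other lists compared. The values were 0.07 for G1/S genes, 0.08 for S phase genes, 0.09 for G2 and mitosis genes, 0.08 for histone mRNA and chaperone genes and -0.01 for pigmentation genes. With the number of UMIs of the cell the value was -0.15.

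Along the histone share of all eligible cells, the lists followed different courses. Cells were divided by percentile of the share, and the rule genes stood at 0 CPM in the cells without a rule UMI, at 120 CPM in the 139 cells from the 80th to the 85th percentile, at 1051 CPM in the 140 cells from the 85th to the 90th, and at 4391 and 8661 CPM in the 139 and 139 cells of the next 2 steps. The other histone genes stood at 99.7, 171, 406, 1070 and 1686 CPM in the same steps. G2 and mitosis genes stood at 234 CPM in the cells without a rule UMI and 1128 CPM in the next 361 cells, whose median depth was also higher (31863 against 21266 UMIs). They stood at 1047 and 1063 CPM in the next 2 steps, reached 2939 CPM from the 85th to the 90th percentile and stood at 3319 and 3337 CPM in the members. G1/S genes did not follow the share steadily either, at 530, 858, 538 and 819 CPM up to the 85th percentile, then 1030, 1647 and 1901 CPM. Median depth moved with these values, at 21266, 31863, 20866, 23931, 32239, 45033 and 41627 UMIs per cell, and its part in them was not tested. Pigmentation genes stood at 20254 CPM from the 80th to the 85th percentile, 17013 CPM from the 85th to the 90th, and 14543 and 14442 CPM in the members. Between the lower and the upper 139 members the rule genes differed, as the choice of cells set them to, and the other histone genes did as well, while the G2 and mitosis genes and the pigmentation genes stood at nearly equal levels.

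**Figure D4:**
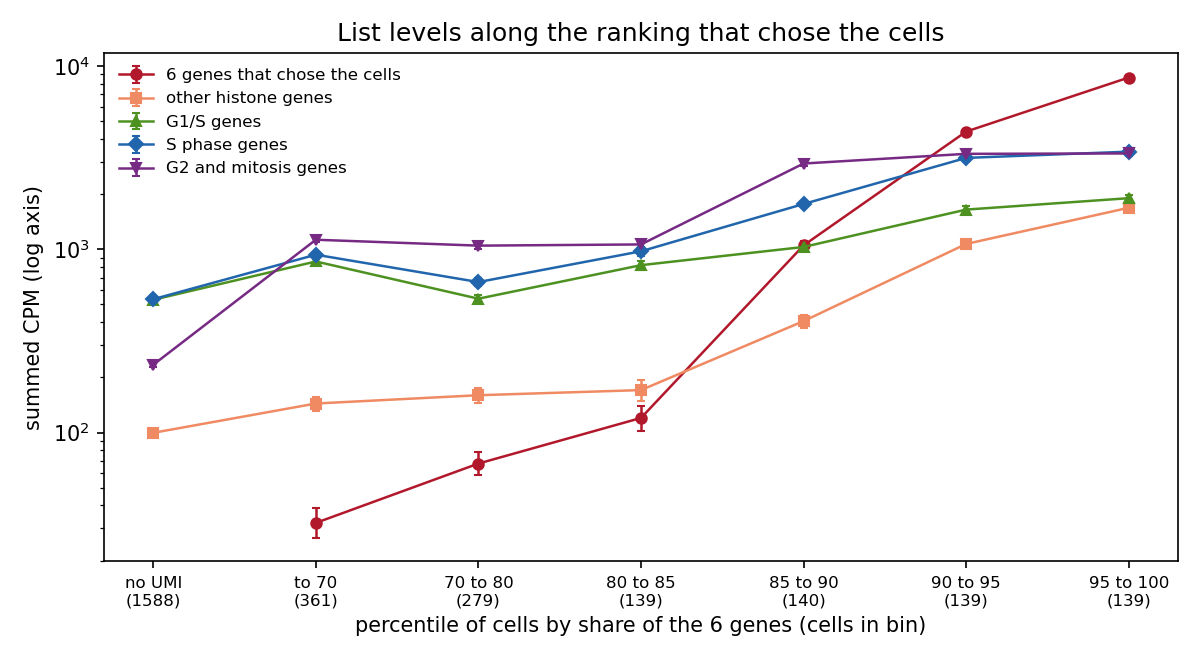
Summed CPM of gene lists (vertical axis) in cells divided by percentile of the rule-gene share (horizontal axis, from cells at 0 to the 95th to 100th percentile). Error bars are 95% Poisson counting intervals. Histone lists continue upward through the last 2 steps, where the G2 and mitosis list stands at 3319 and 3337 CPM.

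The members were next set beside the 278 eligible cells highest in G1/S genes and the 278 highest in G2 and mitosis genes, chosen in the same way. Of the G1/S-high cells 93 (33.5%) were also members, of the G2/M-high cells 113 (40.6%) were, and 76 members were in neither. Among the G1/S-high cells 70 (25.2%) had no rule UMI, and among the G2/M-high cells 26 (9.35%). The other histone genes, which chose none of the 3 groups, summed to 1378 CPM in the members, 518 CPM in the G1/S-high and 851 CPM in the G2/M-high cells. Top2a stood at 888, 373 and 873 CPM. Pigmentation genes, which also chose none of them, summed to 14492, 15519 and 17087 CPM, so all 3 groups lay below the histone-low cells.

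With shared cells left out, 185 members were compared with 185 G1/S-high cells and 165 members with 165 G2/M-high cells. Against G1/S-high cells, the other histone genes stood at 1413 and 122 CPM, a log2 ratio of 3.54 (3.34 to 3.74), while S phase genes stood at 2917 and 2952 CPM, a log2 ratio of -0.02 (-0.07 to 0.04). Slbp stood at 176 and 189 CPM, a log2 ratio of -0.10 (-0.32 to 0.12), so these counts did not separate the groups by Slbp. Pigmentation genes stood at 14613 and 16156 CPM, a log2 ratio of -0.14 (-0.17 to -0.12). Against G2/M-high cells, the other histone genes stood at 1261 and 373 CPM, a log2 ratio of 1.76 (1.63 to 1.89), and Slbp at 251 and 50.3 CPM, a log2 ratio of 2.32 (1.98 to 2.68). Top2a stood at 694 and 669 CPM, a log2 ratio of 0.05 (-0.07 to 0.17). Thus the 185 members outside the G1/S-high cells had S phase genes and Slbp near the level of those cells. The 165 members outside the G2/M-high cells, a different subset, had Top2a near the level of those. Other genes varied. Against G1/S-high cells, Pcna had a log2 ratio of -0.48 (-0.62 to -0.35) and Rrm2 of 0.32 (0.13 to 0.51). Against G2/M-high cells, Mki67 had one of -0.64 (-0.79 to -0.49) and Cdk1 of -0.52 (-0.71 to -0.32). Leaving out shared cells removes from each group those most like the other, which can widen these ratios.

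**Figure D5:**
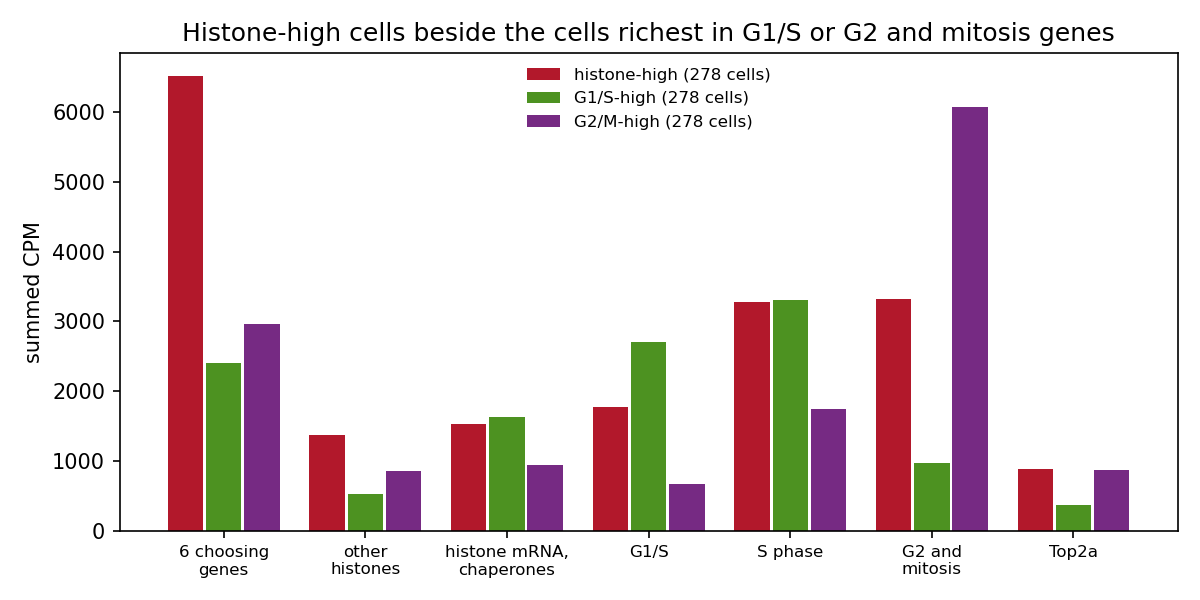
Summed CPM of gene lists (bars, from 0) in the 278 histone-high cells, the 278 cells highest in G1/S genes and the 278 highest in G2 and mitosis genes, shared cells included. The other histone genes stand at 1378, 518 and 851 CPM.

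Cells of this kind were not found in the bulb library. Of 3734 bulb melanocytes that passed the same limits with more than 5000 UMIs, 0 reached the lowest share of the members, which allows a share of up to 0.0803% by 3 counts. The highest bulb cell had 8.40 rule UMIs per 10000. With every cell thinned to 5000 UMIs, 335 eligible early-anagen cells (12.0%, 10.8 to 13.3) had at least 5 rule UMIs, against 2 bulb cells (0.0536%, 0.00649 to 0.193). Over all UMIs, Hist1h2ap stood at 578 CPM in the eligible early-anagen cells and 3.26 CPM in the bulb melanocytes, and Top2a at 245 and 7.27 CPM. The histone genes did not all follow this order. Hist1h2bc stood at 27.5 CPM in early anagen and 44.5 CPM in the bulb, a log2 ratio of -0.69 (-0.78 to -0.61), and Hist1h1c, a linker histone gene, at 19.7 and 42.1 CPM. Each condition had 1 library, kit chemistry was version 3 in early anagen and version 2 in the bulb, and median depth was 24528 and 14286.5 UMIs per eligible cell, so condition, chemistry and library cannot be told apart.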

How the data were processed

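The values the authors deposited are unnormalized UMI counts of 2 libraries, made with Cell Ranger 6.0.1 and the mm10 (GRCm38) reference per the file headers and the submitters' notes. No filter on mitochondrial genes had been applied. The cells of the report, the gene lists and the comparisons were chosen with earlier results of these data known. Of the 6 genes listed as enriched in stem cells, the text of the study names Col12a1, Txnip and Cdh1 as such. It does not name Hspa1a, Cd9 and Sept4. The list was picked on these samples.

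UMIs of each eligible cell were thinned at random to 10000 (Python 3.11.15, numpy 2.4.6, scipy 1.17.1), added up within each group and scaled to 1000000 UMIs (CPM). With 1 library per condition no p-value was computed. Ratios carry exact 95% Poisson intervals and shares Clopper-Pearson intervals. A gene was counted as higher or lower at 1.5-fold, among genes of at least 10 CPM over all eligible cells. Cell cycle phases were scored with Seurat 5.3.0 in R 4.3.3 on the thinned counts. Named genes were the rule genes and Top2a, the members of each list with the largest and smallest ratios, and the 10 most extreme genes in each direction at 50 CPM or more. Mitochondrial, ribosomal protein and sex-linked genes and unnamed gene models were left out of the last group. Some genes that these rules name are not reported here. Genes that stand for a role in a list beyond these (Pcna, Slbp, H2afz, H3f3a, Ccng1, Mlana, Mitf, Hist1h3b, Hist2h2be) were chosen after their values were seen, as were those in the comparisons of S with G2/M members, with G1/S-high and G2/M-high cells and with the bulb. Sequences were read from RefSeq promoters (GRCm38.p6) and GENCODE M21 transcripts.

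The alternatives were no thinning, thinning to 5000 UMIs or with another seed, a total without histone genes, edgeR 4.0.16 TMM factors, the top 5% or 20% of cells, the middle cells as comparison, choice by Hist1h1b alone or on separate UMIs, more than 20000 UMIs, a mitochondrial limit of 10%, no keratin limit, no cells among the 5% with the most UMIs, and no CPM minimum. The calculation of the ratios was also run on counts drawn from Poisson distributions with known folds. The intervals assume the same distribution, and the draw held no spread between cells or mice. It therefore checks the calculation only.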

Additional observations from a re-analysis of the deposited data

How the results depend on the processing

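No paired analysis was possible because each condition had 1 library. None of the 5 list medians changed direction under any alternative run. The genes given with a ratio, 20 from all genes and 39 from the lists, were run under 14 alternatives, and of 826 values 559 stayed within the counting interval. Of the 49 past 1.5-fold, Lef1 alone changed direction, to 0.075 with no keratin limit. Among the others Ung, Lsm10, H2afj and Axin2 changed sign in at least 1 setting. Within 1.5-fold in some setting were Lef1, Hspa1b, Hspb1, Ypel3 (-0.54 above 20000 UMIs) and, against the middle cells, Hist1h2bc (0.49), Cenpa (0.17) and Ccnb2 (0.23). Sox10, Eed and Lsm10, within 1.5-fold as given, passed it in some settings (at most -0.84, 1.01 and -0.61). The share of members called S, 37.8%, lay between 32.9% and 40.5% over 7 alternatives. In the top 20% of cells, 49.9% were called G2/M and 17.2% G1. In the other alternatives G2/M took from 59.5% to 62.9% and G1 0%. The median log2 ratio of the other histone genes (3.03) was 4.86 without thinning, 3.40 in the top 5% of cells, 2.53 in the top 20%, 2.04 against the middle cells, 2.64 with members chosen by Hist1h1b alone, 6.04 in cells of more than 20000 UMIs and 4.21 with no CPM minimum. That of G1/S genes (1.73) was 1.37 without thinning, 1.32 in the top 20%, 1.07 against the middle cells and 1.12 above 20000 UMIs. That of S phase genes (2.42) was 2.15, 1.98, 1.62 and 1.99 under the same settings and 2.25 by Hist1h1b alone. That of G2 and mitosis genes (4.11) was 3.69, 3.73, 1.30 and 3.01, and 3.07 by Hist1h1b alone, 3.36 on separate UMIs and 3.55 with no keratin limit. That of pigmentation genes (-0.66) was -0.39 in the top 20% and -0.78 above 20000 UMIs. The histone median thus lay above that of G2 and mitosis genes in 4 settings, without thinning, against the middle cells, above 20000 UMIs and with no CPM minimum (4.21 and 4.08), and below it in the others. The top 20% holds 557 cells and the setting above 20000 UMIs 185 members, and the cause of the other moves was not tested. Over all genes, 803 were higher and 953 lower. These counts were 550 and 330 in the top 20%, 754 and 682 without thinning, 785 and 780 above 20000 UMIs and 861 and 860 with TMM factors. With no CPM minimum they were 2476 and 2428 of 13144 genes. In the other settings the lower count was the larger. Levels below a few CPM in the members rest on few UMIs, and 1 library limits every comparison.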

Other observations

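WNT feedback genes, which report signalling through beta-catenin, did not separate the groups. Of the 9 genes 6 reached 10 CPM, 0 were higher and 1 was lower in histone-high cells, with a median log2 ratio of -0.03, and the list summed to 162, 171 and 167 CPM in histone-high, middle and histone-low cells. Axin2 stood at 38.1, 43.0 and 42.0 CPM, a log2 ratio of -0.14 (-0.45 to 0.16). Lef1 was the gene that was lower, at 10.1 and 17.3 CPM, a log2 ratio of -0.78 (-1.40 to -0.22), but 0.075 when the keratin limit was dropped, and it was within 1.5-fold in further settings, such as without thinning (-0.45).

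Immediate early and heat shock genes, which are induced by stress and by tissue dissociation, took a slightly smaller share in histone-high than in histone-low cells. Of 12 genes 0 were higher and 3 were lower, with a median log2 ratio of -0.27, and they summed to 2188, 2282 and 2949 CPM. Against the middle cells the median had the opposite sign, 0.15. Hspb1 had the lowest log2 ratio, -1.30 (-1.60 to -1.02), and Hspa1b followed at -0.92 (-1.05 to -0.78). Hspb1 stood at -0.41 in the top 20% of cells. Hspa1b was within 1.5-fold in the top 5% (-0.45), against the middle cells (-0.55) and above 20000 UMIs (-0.058). Fos stood at 416, 371 and 470 CPM and was detected in 71.9%, 71.7% and 73.4% of cells.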
